A study of Mus musculus with 12 samples.

Results

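The genes described here encode the proteins of the mitochondrial ribosome in the mouse embryo. They were chosen by name: every gene whose symbol is Mrpl or Mrps followed by a number and at most 1 letter, pseudogenes left out, with at least 10 counts in at least 3 of the 12 libraries. Of 55291 genes in the table, 78 had such a name and 77 reached the count minimum. The gene left out, Mrpl53, had 0 counts in all 12 libraries. All 77 were among the 21160 genes tested. Of these, 50 belong to the large subunit, 26 to the small subunit, and 1, Mrps36, carries the name but is a component of the 2-oxoglutarate dehydrogenase complex.

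The mitochondrial ribosome translates the few mRNAs that the mitochondrial genome encodes, all of them for inner-membrane subunits of the respiratory chain and ATP synthase. Its ribosomal RNA comes from the mitochondrial genome, while every one of its proteins is encoded in the nucleus, translated in the cytosol and imported. Some of these proteins descend from bacterial ribosomal proteins, and others were added or strongly changed during the evolution of mitochondria. The early embryo inherits its mitochondria and a store of mRNA from the oocyte, clears much of that store and starts its own transcription at about the 2-cell stage.

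The study profiled mouse embryos by Smart-seq2, a method that copies polyadenylated RNA from an oligo(dT) primer, in 4 groups of 3 libraries. The groups are 2-cell embryos (L2C in the labels) with a maternal Pan2 deletion, here KO L2C, wild-type 2-cell embryos, here WT L2C, zygotes (PN3 in the labels) with the maternal deletion, here KO PN3, and wild-type zygotes, here WT PN3. Pan2 encodes the catalytic subunit of PAN2-PAN3, a deadenylase that trims poly(A) tails. Because priming starts at a poly(A) tail, a level here is that of RNA which still carried one. The allele, the Cre driver, the strain, the deleted stretch and the number of embryos per library are unstated in the sources at hand, and the labels' protocol speaks of oocytes where the series design speaks of zygotes.

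Libraries held between 14453592 and 28624766 counts, and 3 counts in a library correspond to between 0.109 and 0.171 CPM, the counts scaled to a common library size after TMM correction. The 77 genes took between 0.178% and 0.452% of a library's counts. Pan2 itself had 15.3, 17.8 and 34.5 CPM in KO L2C and 62.2, 60.1 and 69.1 CPM in WT L2C, and 1.58, 6.67 and 4.52 CPM in KO PN3 and 189, 173 and 160 CPM in WT PN3. One gene model, CT010467.1, took 34.0% (KO) and 24.0% (WT) of the counts of L2C replicate 3 and 32.2% (KO) and 34.9% (WT) of PN3 replicate 2, against 4.35% to 13.9% elsewhere. Replicates 1 and 2 of each L2C group lay far closer together than other pairs. Their chi-square per degree of freedom was 3.70 in KO and 3.39 in WT, against 17.8 to 718. That is above sampling noise, which does not show that they are independent. They were kept as separate libraries. With each pair summed, 4 of the 37 genes lower in KO at L2C and 0 of the 3 higher kept their call. The summed level of 8 embryo and oocyte markers ranged over 4148 to 6295 CPM in KO L2C, 2415 to 3329 in WT L2C, 11870 to 19920 in KO PN3 and 11520 to 17180 in WT PN3. The 6 markers of 2-cell embryos in the table summed to 143 to 447 CPM in KO L2C, 271 to 656 in WT L2C, 3.14 to 10.7 in KO PN3 and 2.01 to 3.98 in WT PN3. Duxf3 of that list was at 0 throughout, and Tdpoz3 was at 0 in every PN3 library. The 12 granulosa or cumulus markers summed to 24.7 to 41.2 CPM in KO L2C, 13.7 to 19.1 in WT L2C, 29.8 to 44.3 in KO PN3 and 23.4 to 37.1 in WT PN3. The 8 sperm markers summed to 8.37 to 9.27 CPM in KO L2C, 3.61 to 5.74 in WT L2C, 12.1 to 17.3 in KO PN3 and 14.1 to 18.5 in WT PN3. The 11 oviduct, stroma or blood markers summed to 207 to 238 CPM in KO L2C, 233 to 280 in WT L2C, 24.5 to 75.1 in KO PN3 and 25.4 to 53.6 in WT PN3.

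The 6 promoters below are shown because their genes lie on both sides of the comparison of KO with WT at L2C: Mrps6, Mrps15 and Mrpl22 are the 3 genes lower in KO with the lowest p among those with a promoter in the RefSeq table, and Mrps23, Mrps31 and Mrpl14 are the 3 that were higher. Each runs 5′ to 3′ on the gene's strand from 250 bases before to 50 after the RefSeq start, on GRCm38.p6, the assembly also called mm10, with matches to the 6 motifs searched in capitals. They lie at chr16:92058086-92058385 (Mrps6), chr4:126046678-126046977 (Mrps15), chr11:58171414-58171713 (Mrpl22), chr11:88204138-88204437 (Mrps23), chr8:22411090-22411389 (Mrps31) and chr17:45686099-45686398 (Mrpl14), all on the plus strand.
Mrps6: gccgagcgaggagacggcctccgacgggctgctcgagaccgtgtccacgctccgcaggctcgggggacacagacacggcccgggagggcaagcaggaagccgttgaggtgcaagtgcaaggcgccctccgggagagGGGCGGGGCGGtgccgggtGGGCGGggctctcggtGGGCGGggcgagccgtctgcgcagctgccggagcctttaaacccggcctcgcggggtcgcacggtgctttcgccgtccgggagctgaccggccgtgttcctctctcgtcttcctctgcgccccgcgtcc
Mrps15: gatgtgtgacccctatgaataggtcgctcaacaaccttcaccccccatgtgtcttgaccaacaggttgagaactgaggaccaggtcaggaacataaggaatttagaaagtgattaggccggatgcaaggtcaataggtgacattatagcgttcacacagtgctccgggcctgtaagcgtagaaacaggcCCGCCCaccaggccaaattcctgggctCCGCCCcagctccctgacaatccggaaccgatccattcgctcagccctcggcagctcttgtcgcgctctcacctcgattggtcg
Mrpl22: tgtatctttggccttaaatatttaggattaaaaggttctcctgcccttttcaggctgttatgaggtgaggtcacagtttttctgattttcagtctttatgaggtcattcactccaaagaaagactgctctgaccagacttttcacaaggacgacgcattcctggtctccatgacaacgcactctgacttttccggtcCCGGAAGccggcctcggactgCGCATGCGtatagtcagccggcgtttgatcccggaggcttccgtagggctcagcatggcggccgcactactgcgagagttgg
Mrps23: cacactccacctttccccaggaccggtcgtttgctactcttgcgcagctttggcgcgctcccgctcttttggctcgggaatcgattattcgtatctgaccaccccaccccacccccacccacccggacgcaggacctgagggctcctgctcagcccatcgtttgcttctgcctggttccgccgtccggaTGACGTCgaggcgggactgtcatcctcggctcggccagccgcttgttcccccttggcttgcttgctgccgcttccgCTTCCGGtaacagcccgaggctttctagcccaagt
Mrps31: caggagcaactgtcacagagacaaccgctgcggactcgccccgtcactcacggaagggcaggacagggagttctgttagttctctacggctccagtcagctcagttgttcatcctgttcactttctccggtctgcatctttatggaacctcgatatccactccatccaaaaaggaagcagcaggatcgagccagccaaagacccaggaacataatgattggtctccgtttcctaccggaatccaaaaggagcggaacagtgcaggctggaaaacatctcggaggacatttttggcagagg
Mrpl14: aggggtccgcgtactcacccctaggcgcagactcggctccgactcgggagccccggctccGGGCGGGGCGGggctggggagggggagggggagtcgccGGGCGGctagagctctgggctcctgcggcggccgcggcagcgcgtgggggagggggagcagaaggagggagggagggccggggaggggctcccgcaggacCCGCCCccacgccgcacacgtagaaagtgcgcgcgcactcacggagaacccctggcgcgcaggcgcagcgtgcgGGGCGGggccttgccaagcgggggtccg
Capitals in Mrps6 and Mrps15 mark GC boxes, on the gene's strand in Mrps6 and on the opposite strand in Mrps15. In Mrpl22 they mark an ETS core followed by an NRF1 core that matches on both strands with overlapping letters. In Mrps23 they mark a CRE core and, after the start, an ETS core on the opposite strand, and in Mrpl14 GC boxes on either strand. None of the 6 motifs matched in the Mrps31 window.

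Maternal Pan2 deletion was first compared with wild type at the 2-cell stage. The log2 fold change of KO over WT was below 0 for 62 mitochondrial ribosomal protein mRNAs and above 0 for 15. Of the 77 genes, 37 were lower and 3 higher at an edgeR adjusted p under 0.05, and 37 were not called, with a median log2 fold change of -0.79 over the 77 genes against 0.016 over all genes tested. Among all 21160 genes 9.74% were called lower and 7.24% higher. The 3 KO libraries all lay below the 3 WT libraries for 49 of the 77 genes (63.6%) and above them for 5 (6.49%), against 24.5% and 19.1% of all genes tested. The libraries hold RNA of whole embryos, so fewer cells with a transcript and less of it per cell cannot be told apart.

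Summed over the 50 large-subunit genes, the level was 1568, 1605 and 1294 CPM in KO L2C, against 2882, 2863 and 2462 CPM in WT L2C. Every KO library was below every WT library, and the means were 1489 ± 170 CPM in KO L2C and 2736 ± 238 CPM in WT L2C (SD, n = 3 each). The 26 small-subunit genes summed to 854, 861 and 739 CPM in KO L2C, against 1091, 1110 and 921 CPM in WT L2C, again without overlap. In PN3 the large-subunit sum was 1501 ± 129 CPM in KO and 1659 ± 194 CPM in WT, and the small-subunit sum was 1056 ± 51.5 CPM in KO and 1084 ± 101 CPM in WT (SD, n = 3 each), so the ranges of both sums overlapped between genotypes at that stage. Of the large-subunit genes 28 of 50 were called lower and 1 higher at L2C (median log2 fold change -0.89), and of the small-subunit genes 9 of 26 lower and 2 higher (median -0.43). The difference between the subunits was not tested.

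**Figure D1:**
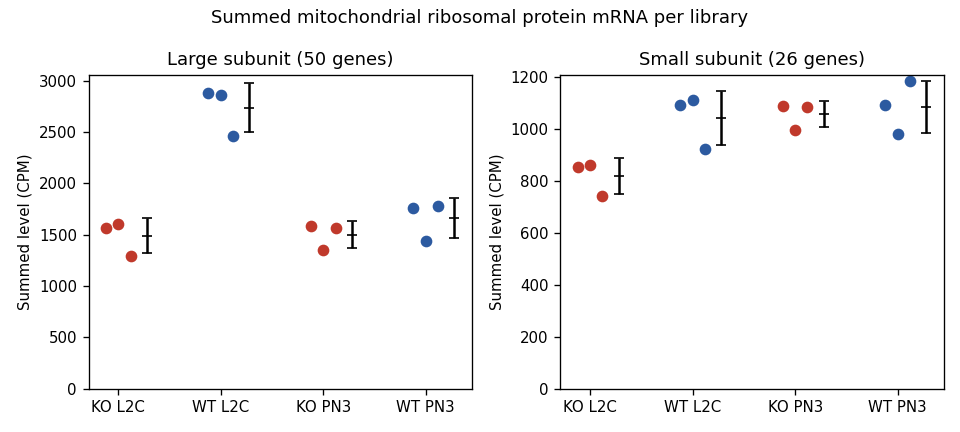
Summed level in CPM (vertical axes, from 0) of the 50 large-subunit genes (left) and 26 small-subunit genes (right) in each library, with KO in red and WT in blue and the group mean with its SD in black. The 3 KO L2C libraries sit between 1294 and 1605 CPM for the large subunit and all 3 WT L2C libraries between 2462 and 2882 CPM.

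By descent the counts were as follows. Of 16 small-subunit genes with a bacterial counterpart, 8 were lower and 0 higher in KO L2C (median log2 fold change -0.68). Of the 10 that are specific to mitochondria or strongly diverged, 1 was lower (Mrps22) and 2 were higher (Mrps23 and Mrps31), the median being -0.0005, while with the replicate block 3 of the 10 were lower and 3 higher. In the large subunit 14 of 30 genes with a bacterial counterpart were lower and 1 higher (median -0.68), and 14 of 20 mitochondria-specific genes were lower and 0 higher (median -1.14). These splits are counts and were not tested against each other.

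Mrps6 (chromosome 16, 92058270 to 92112227), a small-subunit protein of bacterial ancestry, had 18.2, 16.1 and 18 CPM in KO L2C, against 57.8, 66.6 and 59.1 CPM in WT L2C. The KO libraries lay near the zygote level, which was 17.3, 21.9 and 19.5 CPM in KO PN3 and 15.8, 20.8 and 14.3 CPM in WT PN3, and the 3 WT L2C libraries stood apart from all 9 others. Its log2 fold change at L2C was -1.81 (SE 0.23, edgeR adjusted p = 0.000614), a 3.51-fold lower level in KO. The exons of Mrps6 share 305 bases with Gm49711 and 159 bases with Slc5a3, both on the same strand, and reads there may have been counted for either gene.

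Mrps15 (chromosome 4, 126046925 to 126055532), whose bacterial counterpart binds rRNA early in assembly of the small subunit, had 8.62, 8.08 and 10.5 CPM in KO L2C, against 41.5, 32.9 and 31.4 CPM in WT L2C. Its PN3 libraries held 10.99, 11.6 and 7.85 CPM in KO and 8.69, 9.84 and 8.40 CPM in WT. As for Mrps6, the WT L2C libraries were the high ones and the other 9 overlapped. The log2 fold change at L2C was -1.96 (SE 0.26, edgeR adjusted p = 0.000903).

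Mrpl22 (chromosome 11, 58171661 to 58179565) encodes a protein that lines the exit tunnel of the large subunit. It had 50.4, 44.2 and 34.1 CPM in KO L2C, against 122, 118 and 90.7 CPM in WT L2C, with the log2 fold change at -1.36 (SE 0.21, edgeR adjusted p = 0.00137). At PN3 the order was the opposite one, with 36.8, 37.6 and 36.3 CPM in KO and 24.0, 25.5 and 25.6 CPM in WT, and neither pair of groups overlapped. The PN3 difference (log2 fold change 0.56, SE 0.21) did not pass, at an edgeR adjusted p of 0.376, and passed with the replicate block, at an adjusted p of 0.0457.

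Mrpl54 (chromosome 10, 81264713 to 81266934), a mitochondria-specific protein of the large subunit, had 8.11, 10.1 and 6.17 CPM in KO L2C, against 37.1, 32.6 and 41.4 CPM in WT L2C (log2 fold change -2.19, SE 0.31, edgeR adjusted p = 0.00114). Its KO libraries were also the low ones at PN3, with 4.95, 3.03 and 6.24 CPM in KO and 9.17, 10.7 and 9.23 CPM in WT, a log2 fold change of -1.03 that did not pass (edgeR adjusted p = 0.267). Mrpl20 (chromosome 4, 155802878 to 155809975), whose bacterial counterpart acts early in large-subunit assembly, had 28.4, 29.5 and 19.6 CPM in KO L2C, against 120, 115 and 94.3 CPM in WT L2C (log2 fold change -2.09, SE 0.34, edgeR adjusted p = 0.00192). In zygotes Mrpl20 was far lower, at 1.18, 1.18 and 2.86 CPM in KO PN3 and 2.07, 2.80 and 3.41 CPM in WT PN3. Mrpl51, another mitochondria-specific protein, was at 109, 113 and 87.9 CPM in KO L2C and 236, 245 and 220 CPM in WT L2C (log2 fold change -1.18, SE 0.19, edgeR adjusted p = 0.00165). At PN3 it had 14.6, 13.4 and 17.4 CPM in KO, against 27.3, 28.2 and 26.3 CPM in WT, so its KO libraries lay below its WT libraries at both stages.

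The 2 lowest log2 fold changes belonged to genes with few counts in KO L2C. Mrpl19, related to a bacterial protein at the interface between the subunits, had 14, 1 and 2 counts in KO L2C libraries, against 123, 184 and 120 counts in WT L2C libraries, and the log2 fold change, -4.46 (SE 0.997, edgeR adjusted p = 0.0104), has a wide error. Its exons share 1962 bases with Gcfc2 on the opposite strand. Mrps10, of the small-subunit head, had 44, 46 and 12 counts in KO L2C, against 264, 289 and 189 counts in WT L2C (log2 fold change -2.71, SE 0.51, edgeR adjusted p = 0.00438). Every KO L2C library of both genes was below every WT L2C library.

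Mrpl58, a peptidyl-tRNA hydrolase built into the large subunit that can release stalled chains, averaged 4.53 ± 0.32 CPM in KO L2C and 18.3 ± 4.27 CPM in WT L2C (SD, n = 3 each; log2 fold change -2.01, edgeR adjusted p = 0.00199). Mrpl12, the protein of the flexible stalk that receives translation factors, averaged 70.4 ± 9.40 CPM in KO L2C and 130 ± 5.99 CPM in WT L2C (log2 fold change -0.88, edgeR adjusted p = 0.0216). Mrpl10, which anchors that stalk, averaged 35.6 ± 9.07 CPM in KO L2C and 32.3 ± 2.75 CPM in WT L2C (log2 fold change 0.14, edgeR adjusted p = 0.748) and the difference between the stalk protein and its anchor was not tested. The mitochondria-specific Mrps22 averaged 20.6 ± 5.06 CPM in KO L2C and 49.4 ± 1.52 CPM in WT L2C (log2 fold change -1.26, edgeR adjusted p = 0.00377). Mrpl34, a small protein of bacterial ancestry, averaged 107 ± 12.2 CPM in KO L2C and 249 ± 10.5 CPM in WT L2C (log2 fold change -1.22, edgeR adjusted p = 0.00165).

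Mrpl42, Mrpl28 and Mrpl55, chosen after their values were seen, were also lower in KO L2C, and no single library's removal took their calls away. Mrpl42, a mitochondria-specific protein, had 30.5, 31.8 and 24.5 CPM in KO L2C, against 100.3, 93.4 and 58.2 CPM in WT L2C (log2 fold change -1.54, edgeR adjusted p = 0.00488). Mrpl28 had 29.5, 26.8 and 33.99 CPM in KO L2C, against 90.4, 77.3 and 100.5 CPM in WT L2C (log2 fold change -1.57, edgeR adjusted p = 0.00543). Mrpl55 had 14.5, 14.01 and 11.9 CPM in KO L2C, against 40.9, 42.9 and 26.6 CPM in WT L2C (log2 fold change -1.45, edgeR adjusted p = 0.00647). The genotypes did not overlap for any of these 3 genes at L2C, and they overlapped at PN3 for each. With replicates 1 and 2 of each L2C group summed the 3 calls were lost, at edgeR adjusted p of 0.101 for Mrpl42, 0.0862 for Mrpl28 and 0.111 for Mrpl55.

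**Figure D2:**
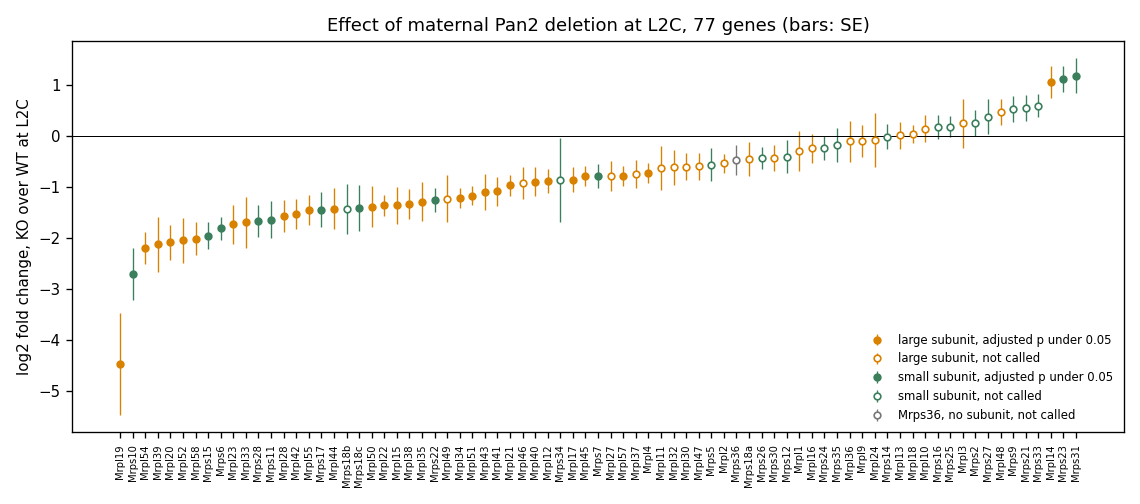
Log2 fold change of KO over WT at L2C (vertical axis) for each of the 77 genes, ordered from lowest to highest, with SE bars, filled symbols for an edgeR adjusted p under 0.05 and colours for the subunit. The 37 filled points on the left run from -4.46 (Mrpl19) to -0.74 (Mrpl4), and the 3 filled points on the right are Mrpl14, Mrps23 and Mrps31.

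The 3 genes that were higher in KO L2C were each called lower at L2C than at PN3 in WT, the call of Mrps23 being lost in 3 of the 12 fits without 1 library. Both comparisons use the same 3 WT L2C libraries, so these calls are not independent of each other. Mrps23 (chromosome 11, 88204388 to 88211507), a mitochondria-specific protein of the small subunit, had 84.1, 91.7 and 70.3 CPM in KO L2C, against 42.8, 46.1 and 25.8 CPM in WT L2C (log2 fold change 1.10, SE 0.26, edgeR adjusted p = 0.0125). Mrps31 (chromosome 8, 22411361 to 22429665), also specific to the mitochondrial small subunit, had 2.40, 3.66 and 2.81 CPM in KO L2C, against 1.49, 1.11 and 1.34 CPM in WT L2C (log2 fold change 1.17, SE 0.34, edgeR adjusted p = 0.0338). Both groups were low beside PN3, where Mrps31 stood at 25.8, 49.5 and 27.8 CPM in KO and 17.8, 27.3 and 23.0 CPM in WT. Mrpl14 (chromosome 17, 45686322 to 45698495), a large-subunit protein of bacterial ancestry at the subunit interface, had 10.96, 11.5 and 10.03 CPM in KO L2C, against 4.41, 5.18 and 6.05 CPM in WT L2C (log2 fold change 1.05, SE 0.31, edgeR adjusted p = 0.0346). For all 3 genes the genotypes did not overlap at L2C and overlapped at PN3. The calls of Mrps31 and Mrpl14 were each lost in 4 of the 12 fits without 1 library, at adjusted p of up to 0.119 and 0.131.

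The 3 paralogs of the bacterial protein S18 occupy separate places in the mitochondrial ribosome. Mrps18c had 2.91, 2.86 and 2.81 CPM in KO L2C, against 8.82, 8.14 and 5.94 CPM in WT L2C (log2 fold change -1.42, edgeR adjusted p = 0.0439). Mrps18b had 12.1, 16.4 and 5.87 CPM in KO L2C, against 32.6, 34.4 and 25.8 CPM in WT L2C, a log2 fold change of -1.43 that did not pass (edgeR adjusted p = 0.0613) and passed with the replicate block (adjusted p = 0.000672). Mrps18a, which sits in the large subunit, had 5.71, 6.90 and 10.3 CPM in KO L2C, against 9.13, 10.9 and 11.5 CPM in WT L2C, overlapping groups with a log2 fold change of -0.46 (edgeR adjusted p = 0.369). Mrps12, a protein of the decoding centre, averaged 18.4 ± 9.16 CPM in KO L2C and 24.4 ± 1.95 CPM in WT L2C (SD, n = 3 each), with 28.9 CPM in KO replicate 3 above every WT library (log2 fold change -0.41, edgeR adjusted p = 0.406). Of the misnamed genes, Mrps30, a large-subunit protein, had a log2 fold change of -0.43 (edgeR adjusted p = 0.257) and Mrps36 one of -0.47 (edgeR adjusted p = 0.296).

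**Figure D3:**
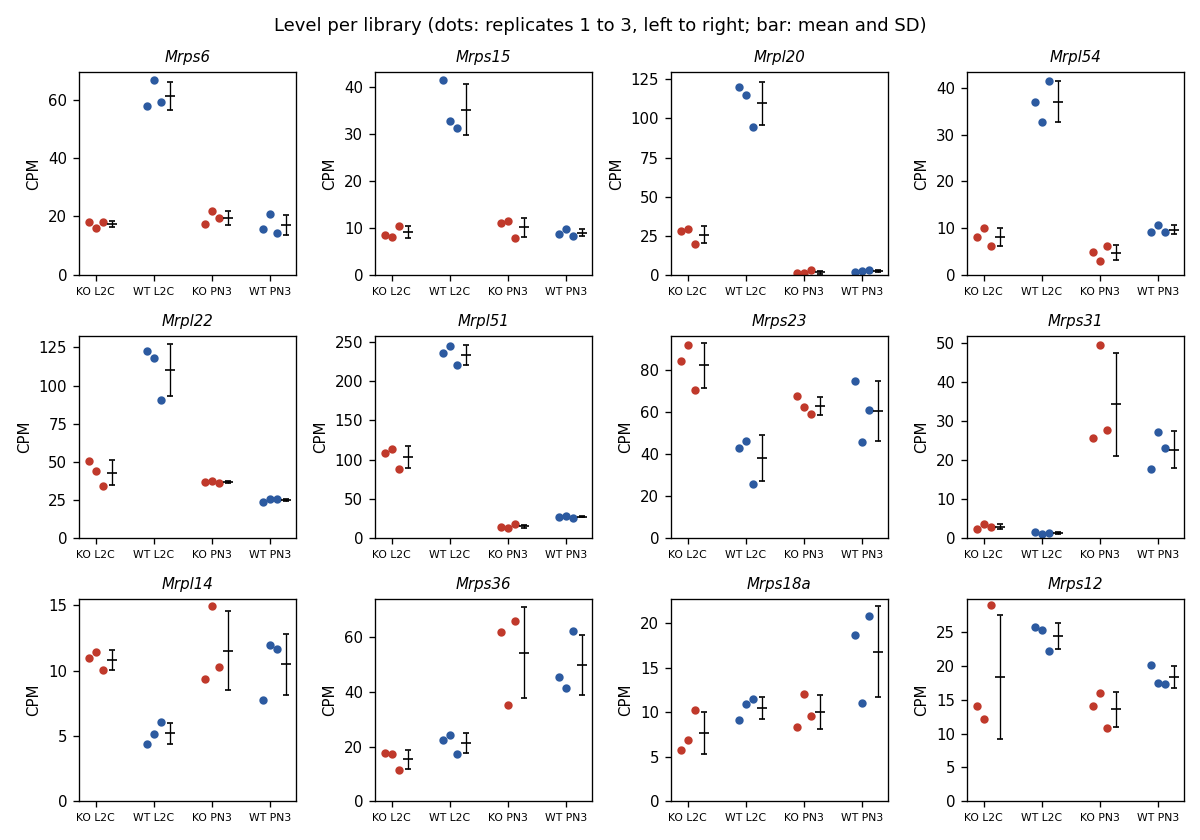
Level in CPM (vertical axes, each from 0) of 12 genes in the 12 libraries, replicates 1 to 3 from left to right within each group, KO red and WT blue, with the group mean and SD in black. For Mrps6 and Mrps15 the WT L2C libraries stand above all other libraries, while Mrps23, Mrps31 and Mrpl14 are higher in KO L2C than in WT L2C.

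The L2C counts depended on the replicates. Without WT L2C replicate 1 or 2 the count of called genes was 20 each, without KO L2C replicate 1 it was 23 and without KO L2C replicate 2 it was 22, and with the close replicates 1 and 2 of each L2C group summed to 1 sample it was 4. The 4 were Mrps6, Mrps15, Mrpl22 and Mrpl54, all lower in KO, at edgeR adjusted p of 0.0331, 0.0427, 0.0457 and 0.0359, where that fit called 0.919% of all genes lower and 0.632% higher. In all 12 fits that left out 1 library, 18 of the 37 lower genes and 1 of the 3 higher genes (Mrps23) kept their call, and no call at this stage changed direction under any alternative. Without the 4 libraries richest in CT010467.1 the count was 60, with 10 higher and 50 lower, where that fit called 23.0% of all genes higher and 22.2% lower. That fit left only the close replicates 1 and 2 in each L2C group. They are not shown to be independent, so its p-values may be too small. With the replicate block 6 genes were higher, with Mrps33, Mrps21 and Mrpl48 (adjusted p = 0.00810, 0.0206 and 0.0195) joining the 3 above, and 46 were lower, where that fit called 14.9% of all genes higher and 17.3% lower. The block left 4 residual degrees of freedom, against 8 without it. It also counted the close L2C replicates 1 and 2 as separate libraries, so a call gained with it has the same limit. Of the 8 embryo and oocyte markers 2 were higher and 1 lower in KO L2C, of 5 tested 2-cell markers 0 were called, of 5 tested granulosa or cumulus markers 1 was higher, of 5 tested sperm markers 0 were called, and of 9 tested oviduct, stroma or blood markers 1 was higher and 1 lower. With the replicate block 6 embryo and oocyte markers were higher and 1 lower, 3 of the 2-cell markers were lower, 1 sperm marker was higher, and 3 oviduct, stroma or blood markers were higher and 1 lower. The part of these cell types and of the share of CT010467.1 in the results was not tested.

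Exons of 31 of the 77 genes overlap those of another gene in the table, and the sources at hand do not say whether counting used strand. Of the 46 genes without such overlap, 26 were lower and 2 higher in KO L2C (median log2 fold change -0.83). Of the 31 with overlap, 11 were lower and 1 higher (median -0.79). Mrpl46 and Mrps11 overlap each other head to head by 173 bases on opposite strands. Mrps11 was lower in KO L2C (log2 fold change -1.64, edgeR adjusted p = 0.0108) and Mrpl46 had a log2 fold change of -0.93 that did not pass (edgeR adjusted p = 0.0653) and passed with the replicate block (adjusted p = 0.00464). Mrpl14 shares 106 bases with Tmem63b on the opposite strand, which had a log2 fold change of 1.14 at L2C (edgeR adjusted p = 0.218). The largest shared parts were 69.8% of the length of Mrps25 (Nr2c2), 63.4% of Mrps34 (Mapk8ip3), 36.0% of Mrpl19 (Gcfc2), 33.4% of Mrpl43 (Twnk) and 30.5% of Mrps18b (Gm16279), these on the opposite strand, and a further 37.0% of Mrps34 on the same strand (Nme3, which had 0 counts in all 12 libraries). The values of these 5 genes are uncertain.

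The zygote gave another picture. At PN3 none of the 77 genes passed in KO against WT in edgeR, beside 0.132% of all genes tested. An unadjusted edgeR p under 0.05 was found for 10 of the 77, a share near the 10.1% of all genes. The median log2 fold change was -0.16 over the 77 genes and 0.0 over all genes. The KO libraries lay below the WT libraries for 15 genes (19.5%) and above them for 4 (5.19%), against 6.96% and 5.9% of all genes tested. Among genes whose mean reached 10 CPM in one genotype or the other, the lowest log2 fold change was that of Mrpl11, at the base of the factor-binding site in the bacterial ribosome, with 5.27, 2.36 and 5.28 CPM in KO PN3 and 11.4, 10.6 and 9.14 CPM in WT PN3 (log2 fold change -1.27, edgeR adjusted p = 0.337). The highest was that of Mrpl39, with 21.5, 15.3 and 23.7 CPM in KO PN3 and 9.35, 6.13 and 15.3 CPM in WT PN3, groups that overlapped only through KO replicate 2 and WT replicate 3 (log2 fold change 0.97, edgeR adjusted p = 0.572). With the replicate block 3 genes passed, Mrpl22 higher and Mrpl51 (log2 fold change -0.85, adjusted p = 0.0117) and Mrpl48 (log2 fold change -0.80, adjusted p = 0.0150) lower, where that fit called 1.43% of all genes higher and 1.24% lower. Mrps34 had only 1, 2 and 0 counts in KO PN3 and 2, 16 and 0 in WT PN3, so no fold is given for it. Without the 4 libraries richest in CT010467.1, 14 of the 77 genes passed at PN3, 3 higher and 11 lower, where that fit called 4.62% of all genes higher and 4.74% lower. The spread in that fit is shared by all groups and draws on the close L2C replicates 1 and 2. DESeq2 called 2, both lower, and of all genes it called 1.45% higher and 1.09% lower.

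Across the 77 genes the KO effect at L2C and that at PN3, measured in separate libraries, had a Spearman rho of -0.0172 and a Pearson r of -0.047 (77 genes, which share libraries within a stage, given as a description). The difference between the stages, the L2C effect of KO less its PN3 effect, was tested in the same fit. It passed for 10 genes, all with a lower value at L2C, where 3.09% of all genes passed in that direction and 1.85% in the other. They were Mrpl22 (-1.92, SE 0.29, edgeR adjusted p = 0.00569), Mrps6 (-2.02, SE 0.31, edgeR adjusted p = 0.00615), Mrps15 (-2.13, SE 0.37, edgeR adjusted p = 0.00883), Mrps22 (-1.88, SE 0.33, edgeR adjusted p = 0.00925), Mrps28, Mrpl21, Mrpl39, Mrpl52, Mrpl19 and Mrps10, the other 6 at adjusted p between 0.0140 and 0.049998. Mrps28, the mitochondrial relative of bacterial S1, had 9.82, 8.40 and 9.43 CPM in KO L2C and 29.5, 30.5 and 27.95 CPM in WT L2C, while at PN3 it had 14.3, 13.1 and 17.9 CPM in KO and 10.6, 5.39 and 13.1 CPM in WT. Its groups did not overlap at L2C, with KO low, and touched at PN3, with KO at or above WT. Mrps22 had 24.4, 22.5 and 14.8 CPM in KO L2C, against 50.9, 47.8 and 49.6 CPM in WT L2C, while at PN3 it had 76.8, 69.2 and 88.7 CPM in KO, against 41.8, 57.5 and 54.3 CPM in WT. It lay below WT in every KO L2C library and above WT in every KO PN3 library. Mrpl39, a mitochondria-specific large-subunit protein, had 5.48, 6.68 and 1.003 CPM in KO L2C, against 20.8, 16.8 and 19.99 CPM in WT L2C. Mrpl52, also specific to the mitochondrial large subunit, had 2.68, 3.72 and 6.82 CPM in KO L2C, against 19.1, 18.04 and 17.6 CPM in WT L2C, and at PN3 3.81, 7.18 and 2.90 CPM in KO, against 2.87, 4.55 and 2.58 CPM in WT. Like Mrps6 and Mrps15, Mrpl52 was high in the WT L2C libraries only. Mrpl21, a large-subunit protein of bacterial ancestry, had 24.4, 23.4 and 19.4 CPM in KO L2C, against 47.2, 46.2 and 38.6 CPM in WT L2C, and overlapped between genotypes at PN3 at 72.5 to 97.6 CPM in KO and 65.95 to 74.6 CPM in WT.

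The median of the difference was -0.59 over the 77 genes and 0.086 over all genes. Mrps15, Mrps6, Mrpl22 and Mrps22 kept this call in every fit without 1 library, and none of the 10 kept it with the close L2C replicates summed. With the replicate block 26 genes passed, 24 lower and 2 higher, where that fit called 9.71% of all genes lower and 8.12% higher, and DESeq2 called 28 (27 lower, 1 higher), against 8.28% of all genes lower and 4.67% higher. Without the 4 libraries richest in CT010467.1 the count was 38 (28 lower, 10 higher), against 12.5% of all genes lower and 15.4% higher. The limit given for that fit at L2C holds here too, since its L2C groups held only the close replicates.

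The next comparison asked how these mRNAs change between zygote and 2-cell embryo in wild type. The genes moved in both directions, and over a wide range. In WT, 36 of the 77 were higher and 24 lower at L2C than at PN3 (edgeR adjusted p under 0.05), beside 36.2% and 25.4% of all genes tested, and 17 were not called. The median log2 fold change was 0.69 over the 77 genes and 0.375 over all genes. With a trend on gene length removed from each library the split turned to 27 higher and 31 lower (median -0.20 over the 77 genes and -0.12 over all genes), and with DESeq2 size factors in edgeR it was 40 higher and 16 lower (median 0.95, and 0.63 over all genes), so the balance of directions moved with the scaling. Mrpl20 had the highest log2 fold change, with 110 ± 13.6 CPM in WT L2C and 2.76 ± 0.67 CPM in WT PN3 (SD, n = 3 each; log2 fold change 5.31, SE 0.39, edgeR adjusted p = 2.76e-07). Mrpl49, Mrpl43 and Mrpl41, all mitochondria-specific large-subunit proteins, were higher by log2 fold changes of 5.21, 4.61 and 4.56. Mrpl51 and Mrpl12 both had a log2 fold change of 3.10 (edgeR adjusted p = 9.99e-08 for Mrpl51 and 4.87e-07 for Mrpl12).

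The 4 lowest log2 fold changes were of small-subunit genes. Mrps31 had 1.31 ± 0.19 CPM in WT L2C and 22.7 ± 4.77 CPM in WT PN3 (log2 fold change -4.10, SE 0.36, edgeR adjusted p = 1.05e-06). Mrps27 (log2 fold change -3.34), Mrps35 (-3.23) and Mrps5 (-2.83), of which Mrps5 has a bacterial counterpart involved in decoding fidelity, came next. Of the large-subunit genes the lowest was Mrpl48, with 57.5 ± 15.7 CPM in WT L2C and 208 ± 24.5 CPM in WT PN3 (log2 fold change -1.86, edgeR adjusted p = 5.28e-05). Mrps36, the dehydrogenase component, fell too (log2 fold change -1.22, edgeR adjusted p = 0.00297). Among the mitochondria-specific genes, 13 of 20 in the large subunit were higher and 1 lower at WT L2C, and 2 of 10 in the small subunit were higher and 6 lower. Of all genes tested 36.2% were higher and 25.4% lower. Small-subunit genes with a bacterial counterpart were called in both directions, with Mrps11 (3.94) and Mrps10 (2.42) higher and Mrps5 and Mrps9 (-1.71) lower. These splits were not tested.

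In KO embryos 22 of the 77 genes were higher and 26 lower at L2C than at PN3 (edgeR adjusted p under 0.05), against 33.5% and 20.1% of all genes, with a median log2 fold change of -0.23 against 0.41. With the length trend removed the split was 17 higher and 45 lower (median -0.99, and -0.13 over all genes). Mrpl49 (log2 fold change 4.27), Mrpl43 (4.02), Mrpl20 (3.89) and Mrpl41 (3.85) were again the highest, beside Mrps34 with its few PN3 counts, and Mrps5 (-3.92), Mrps31 (-3.54) and Mrps35 (-3.07) again among the lowest. Mrpl51 stood at 103 ± 13.6 CPM in KO L2C and 15.1 ± 2.06 CPM in KO PN3 (SD, 3 libraries each; log2 fold change 2.77, edgeR adjusted p = 4.18e-07). The stage changes of the 77 genes in KO followed those in WT, with a Spearman rho of 0.816 and a Pearson r of 0.852 across genes, a description with no test. Both genotypes called 21 genes higher and 17 lower at L2C. The correlation and the joint counts here were not taken over all genes, so they do not show a trait of the 77 genes. Another 14 genes were higher at L2C in WT and not called in KO, among them Mrps6, Mrps15, Mrpl22, Mrps28 and Mrps10, and 8 were lower at L2C in KO and not called in WT, among them Mrps22, Mrpl39 and Mrpl58. The replicate block called Mrpl39 higher in WT (adjusted p = 0.0488) and Mrps28 lower in KO (adjusted p = 0.0210). Mrpl36 alone was higher in KO and not called in WT. Mrpl19 was called in opposite directions, lower at L2C in KO and higher at L2C in WT, on the few counts given above. Its KO call was lost in 8 of the 12 fits without 1 library and its WT call in 3. Another 7 genes were lower in WT and not called in KO, among them Mrps23 and Mrpl14, and 8 were called in neither. Whether a gene's stage change differs between genotypes is the same question as the difference of KO effects tested above.

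**Figure D4:**
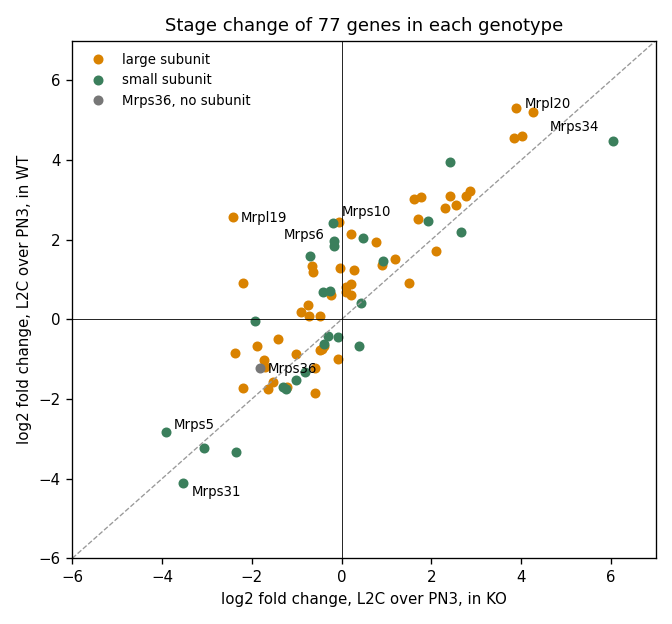
Log2 fold change of L2C over PN3 in KO (horizontal axis) and in WT (vertical axis) for the 77 genes, coloured by subunit, with the dashed line marking equal change. Mrps6 and Mrps10 lie above the line, near 0 in KO and at 1.85 and 2.42 in WT. With the length trend removed the median was -0.99 in KO and -0.20 in WT.

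The CPM of a gene in the zygote, which also grows with its length, was set beside its KO effect at the 2-cell stage. Across the 77 genes the mean log2 level in WT PN3 and the log2 fold change of KO over WT at L2C had a Spearman rho of 0.562 and a Pearson r of 0.55, measured in separate libraries and given as a description. Of the 25 genes lowest in WT PN3 (0.306 to 11.03 CPM) 17 were lower in KO L2C and 1 higher (median log2 fold change -1.54). Among all 8391 tested genes in that range of CPM 9.25% were lower and 5.53% higher. Of the 26 genes in the middle (12.2 to 40.1 CPM) 11 were lower and 1 higher (median -0.68), against 14.8% lower and 9.65% higher among 3005 genes. Of the 26 highest in WT PN3 (42.7 to 208 CPM) 9 were lower and 1 higher (median -0.18), against 12.9% lower and 13.0% higher among 2933 genes. The median over all genes in the 3 ranges was 0.0017, 0.024 and 0.15, and the difference between the 77 genes and all genes in this was not tested.

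**Figure D5:**
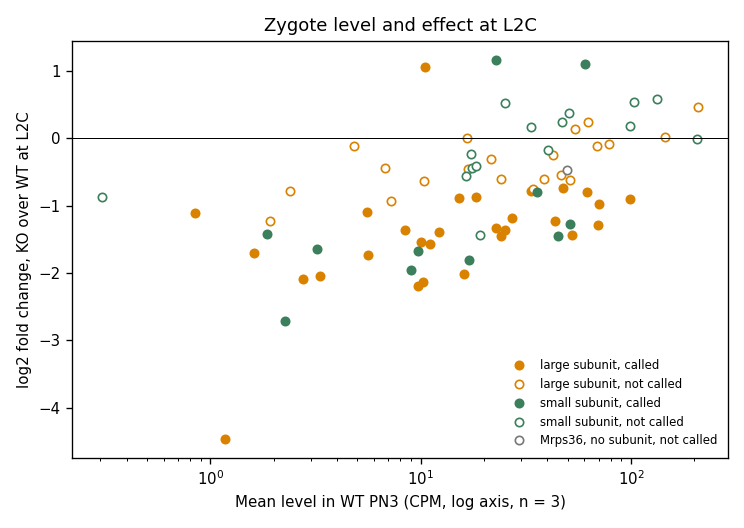
Log2 fold change of KO over WT at L2C (vertical axis) against the mean level in WT PN3 (horizontal axis, CPM on a log scale, n = 3 libraries) for the 77 genes, filled where the edgeR adjusted p was under 0.05 and coloured by subunit. The 25 genes up to 11.03 CPM in WT PN3 have a median of -1.54, and the 26 from 42.7 CPM upward have a median of -0.18.

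Levels can be compared between genes only per length, here CPM per kilobase of the exon length in the table, which joins the exons of all annotated isoforms and so understates genes with long rare exons. The median over the 77 genes was 7.43 CPM per kilobase in KO L2C, 13.2 in WT L2C, 7.96 in KO PN3 and 8.93 in WT PN3. In WT L2C the highest levels were those of Mrpl34 (411 CPM per kilobase), Mrpl41 (146), Mrpl22 (113) and Mrpl40 (90.2), and the lowest those of Mrps5 (0.352), Mrps31 (0.399), Mrps35 (0.494) and Mrpl33 (0.562). In WT PN3 the order was a different one, led by Mrps21 (140 CPM per kilobase), Mrpl18 (103), Mrps33 (79.6) and Mrpl34 (71.6), with Mrps34 (0.148), Mrpl19 (0.215), Mrpl33 (0.221) and Mrps10 (0.281) at the bottom. In KO L2C Mrpl34 (176 CPM per kilobase) was again the highest, followed by Mrps21 (81.0), Mrpl41 (69.0) and Mrpl18 (57.2), and in KO PN3 the leaders were Mrps21 (142), Mrpl18 (116) and Mrps33 (84.9). The exon length of the 77 genes ranged over 607 to 8631 bases, with a median of 2533, against 3267.5 for all genes tested. They lie on 17 chromosomes, with 11 on chromosome 11 and 0 on X or Y.

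Partners of the mitochondrial ribosome were read from the same fit, in lists chosen with earlier results of these data known. Of all genes tested, 9.74% were called lower and 7.24% higher at L2C, and 17.3% and 14.9% with the replicate block. Of 5 ribosomal proteins that carry other names, 1 was lower in KO L2C, Aurkaip1, a small-subunit protein, with 34.5, 29.4 and 35.5 CPM in KO and 78.5, 74.7 and 77.6 CPM in WT (log2 fold change -1.21, edgeR adjusted p = 0.00315). Of 27 assembly and rRNA-modifying factors 2 were lower, Trub2, a pseudouridine synthase needed for mitochondrial translation (log2 fold change -1.86, edgeR adjusted p = 0.000903), and Eral1, an rRNA chaperone (log2 fold change -1.06, edgeR adjusted p = 0.0427). For the assembly factors this is below the share of all genes called lower, as are the 4 with the replicate block. Of 14 translation factors 2 were lower. Tufm, the mitochondrial elongation factor Tu, averaged 8.65 ± 3.69 CPM in KO L2C and 26.6 ± 0.63 CPM in WT L2C (log2 fold change -1.62, edgeR adjusted p = 0.00590), and Mtrf1, of the release factor family, had a log2 fold change of -1.08 (edgeR adjusted p = 0.04998). The 2 mitochondrial rRNAs did not pass. None of these lists had a gene called higher at L2C or any gene called at PN3. With the replicate block 4 assembly factors were lower at L2C and 1 higher (Nsun4), 3 translation factors were lower, mt-Rnr2, the large rRNA, was lower (log2 fold change -0.65 without the block, adjusted p = 0.00429 with it), and none was called at PN3.

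Of 10 mitochondrial transcription genes and nuclear regulators of mitochondrial genes, 5 were lower in KO L2C and 0 higher, and with the replicate block 7 were lower and 1 higher (Ppargc1b). The shares of all genes are those given for the partners above. Gabpa, an ETS-family factor, had 78.3, 79.0 and 37.1 CPM in KO L2C, against 243, 254 and 141 CPM in WT L2C (log2 fold change -1.72, edgeR adjusted p = 0.00696), and was near the level of 3 counts in zygotes, at 0.16 to 0.38 CPM in KO PN3 and 0.073 to 0.26 CPM in WT PN3. Its partner Gabpb1 averaged 58.9 ± 13.5 CPM in KO L2C and 119 ± 32.8 CPM in WT L2C (log2 fold change -1.02, edgeR adjusted p = 0.0331). Nrf1, a transcription factor of nuclear genes for mitochondrial proteins, averaged 39.0 ± 2.59 CPM in KO L2C and 68.7 ± 11.6 CPM in WT L2C (log2 fold change -0.82, edgeR adjusted p = 0.0110). The coactivator gene Pprc1 had 37.5, 36.2 and 54.3 CPM in KO L2C, against 142, 143 and 190 CPM in WT L2C (log2 fold change -1.89, edgeR adjusted p = 0.00122), and Polrmt, the mitochondrial RNA polymerase, had a log2 fold change of -1.36 (edgeR adjusted p = 0.00334). At L2C 66 of 88 cytosolic ribosomal protein genes were lower as well and 0 higher, the median log2 fold change being -1.37, and at PN3 0 were called. The replicate block gave 80 lower and 1 higher at L2C, and 5 lower and 9 higher at PN3. At PN3 that fit called 1.24% of all genes lower and 1.43% higher. Their sum was 12400 to 15310 CPM in KO L2C and 28400 to 33210 CPM in WT L2C. Whether the mitochondrial and cytosolic lists differ was not tested.

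In the RefSeq promoter table, 68 of the 77 genes matched, with 74 promoters. The motifs searched on both strands were the ETS core CCGGAAG, the NRF1 core GCATGCG, the YY1 core AAGATGG, the GC box GGGCGG, the TATA box TATAAA and the CRE core TGACGTC. The ETS core was in 25 of the 74 promoters (33.8%), against 8.86% of all 32851 promoters in the table and 14.1% of those of tested genes. The NRF1 core was in 8 (10.8%), against 3.58% of all promoters and 5.4% of those of tested genes. The YY1 core was in 13 (17.6%), against 6.34% of all and 6.52% of tested. GC boxes were in 39 (52.7%), against 35.7% of all and 54.0% of tested, a share near that of the tested genes. TATA boxes were in 5 (6.76%), against 13.6% of all and 8.99% of tested, and the CRE core in 4 (5.41%), against 3.21% of all and 4.63% of tested. The median GC content of the 74 promoters was 58.5%, against 52.7% of all, and the shares are not adjusted for it. By direction at L2C, the ETS core was in 12 of 31 promoters of genes lower in KO (38.7%). It was in 1 of 3 of genes higher in KO and in 12 of 40 (30.0%) of genes not called. Those 40 promoters belong to 34 genes, and per gene the ETS core was in 38.7% of the lower and 35.3% of the not called. The NRF1 core was in 12.9% and 11.8% of these genes. The YY1 core went the other way, at 16.1% and 23.5%, as did the GC box (48.4% and 52.9%). So did the TATA box (3.23% and 11.8%) and the CRE core (3.23% and 5.88%). These splits were not tested. A match is a string of letters in a window and does not show binding.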

How the data were processed

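Expression was measured by Smart-seq2 in 12 libraries, 3 for each combination of genotype and stage, grouped by their titles. Values were deposited as raw gene counts that the authors had not normalized, as the file headers and whole numbers show. The submitters' processing notes name mm10, featureCounts 2.0.2, STAR 2.7.10a, Trim Galore 0.6.7 and DESeq2. Strand and multi-mapping settings are unstated. Nothing states that replicates came from separate animals, so p-values reflect only how these libraries vary, which may be technical, and counting floors cover counting error only.

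Counts were analysed in R 4.3.3 with limma 3.58.1 and edgeR 4.0.16. Of 55291 genes, filterByExpr kept 21160 and dropped 34131. After TMM scaling, 1 robust quasi-likelihood model with a mean per group was fitted to all 12, with a Benjamini-Hochberg adjustment over all genes tested and a call under 0.05. CPM are edgeR's CPM with the TMM-scaled library size, and CPM per kilobase divide them by the deposited exon length. The fit was run on simulated libraries drawn independently of each other, which does not cover the close L2C replicates. Alternatives were DESeq2 1.42.0, other scalings, no filter, a trend on gene length, only the groups compared, each library left out, the 4 libraries richest in CT010467.1 left out, the close L2C replicates summed, and a replicate block within each stage. Python 3.11.15, pandas 2.3.3, scipy 1.17.1 and matplotlib 3.10.9 made the summaries. Pseudogene rows with similar names, 6 in all, were left out, and reads may have been split between them and their parents.

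The replicate block pairs KO and WT libraries by number, a choice taken from the data and not the labels. Same-numbered KO and WT libraries had correlated deviations from their group means, at 0.165, 0.455 and 0.274 in PN3 and 0.128, 0.15 and 0.221 in L2C. Some unequal numbers did so as well, up to 0.211 in PN3 and 0.14 in L2C. KO replicate 1 correlated more with WT replicate 3 in PN3 (0.205) and WT replicate 2 in L2C (0.14) than with WT replicate 1.

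The genes, the lists and the rules were chosen with earlier results of these data known. Genes were named if they had the lowest adjusted p (up to 6 called per direction and comparison), the 3 highest or lowest fold changes at 10 CPM or more, the 4 highest or lowest CPM per kilobase in a WT group, a place among the S18 paralogs, stalk, decoding, release and misnamed proteins, or exons shared with another gene, or were among the 4 companions of lowest adjusted p in a list.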

Additional observations from a re-analysis of the deposited data

Results flagged for a closer look

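For 10 genes the KO effect at L2C differed from that at PN3 by a test of the difference itself (edgeR, adjusted p under 0.05). The log2 difference, KO effect at L2C minus KO effect at PN3, was -4.99 for Mrpl19, -3.10 for Mrpl39, -2.60 for Mrps10, -2.52 for Mrpl52 and -2.31 for Mrps28. It was -2.13 for Mrps15, -2.02 for Mrps6, -1.92 for Mrpl22, -1.88 for Mrps22 and -1.20 for Mrpl21. Mrps15, Mrps6, Mrpl22 and Mrps22 stayed past the threshold whichever of the 12 libraries was left out, and none of the 10 kept it with the close L2C replicates summed. Mrpl19 had 14, 1 and 2 counts in KO L2C, and its call was lost in 9 of the 12 fits. The adjusted p of Mrps10 was 0.049998, at the edge of the threshold.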

How the results depend on the processing

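At PN3 the count of called genes was 0 in edgeR and stayed 0 under the other scalings, no filter, the length trend, the groups compared alone, each left-out library and the summed replicates, while DESeq2 called 2, the replicate block 3 and the fit without the 4 libraries richest in CT010467.1 called 14. At L2C the count was 40. It was 20 to 43 with 1 library left out and 4 with replicates 1 and 2 of each L2C group summed, and every other alternative gave 30 to 60. For the difference of the effects the count was 10. DESeq2 gave 28, the replicate block 26, the fit without the 4 libraries 38, and the summed replicates 0, while leaving out 1 library gave 4 to 11. Upper quartile scaling moved the median L2C log2 fold change of all genes to 0.23, and that of the 77 genes to -0.58. The replicate block moved the count at L2C to 52, its 3 higher genes becoming 6, and the counts of the WT and KO stage changes to 68 and 54, against 60 and 48. The block took no call away. The fit without the 4 libraries kept only the close replicates 1 and 2 in each L2C group. The block counted these replicates as separate libraries, as the main fit did. Counts given without a share of all genes, here and above, show how the calls moved and not a trait of the 77 genes.

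With the length trend removed, 10 of the 77 values changed sign in the WT stage change and 10 in the KO stage change, 2 at PN3, 3 at L2C and 1 in the difference. Those that had been called were Mrpl40 in the WT stage change (-0.32), and Mrpl54 (-0.44) and Mrps7 (-0.019) in the KO stage change. Others that changed sign were called only with the trend removed. They were Mrpl2 in the WT stage change, and Mrpl22, Mrpl4, Mrpl40, Mrpl45 and Mrps23 in the KO stage change. The cause was not tested. The fit with only the groups compared was not run for the difference of effects, which uses all 4 groups. On the gene's strand alone, the ETS core was in 18.9% of the 74 promoters, in 4.77% of all and in 7.79% of those of tested genes.

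Values of genes with few counts, such as Mrps34 at PN3 and Mrpl19 in KO L2C, are imprecise at this depth.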
